A study of Mus musculus with 43 samples.

Results

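Dendritic cells were compared with Ly6Clo cells from the normoxic lungs of newborn C57BL/6 mice, across all expressed genes. The comparison used 11 of the 43 libraries of the series: 6 from dendritic cells (DC) and 5 from Ly6Clo cells, chosen by the cell population and oxygen condition named in the labels and not by any measured value. Pups of 3 litters were found within 6 h of birth, mixed and randomised to normoxia or to hyperoxia (FiO2 0.9), and stayed there for 1.5 days. Lungs were perfused and digested, and 4 populations were sorted by flow cytometry: DC as MHCIIhi CD11chi, Ly6Clo cells as Ly6Clo CD11chi, alveolar macrophages (AM) as SiglecFhi CD11chi, and Ly6Chi cells as Ly6Chi CD11clo, both Ly6C types being described by the labels as monocytes or macrophages. Full-length cDNA was amplified and sequenced without molecular identifiers, and the deposited values are read counts per gene. The labels name no transgene, deletion or drug in any group. The same 2 populations were also sorted from hyperoxic pups of the same litter numbers, 5 libraries each, and those 10 libraries served as a separate set in which to repeat the comparison.

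Conventional dendritic cells arise from bone marrow precursors that need the growth factor receptor FLT3, take up antigen in the tissue, load it on MHC class II, and carry it to the draining lymph node under the chemokine receptor CCR7. Their main subsets are cDC1, which depend on BATF3 and IRF8 and cross-present antigen from dead cells, and cDC2, which depend more on IRF4 and are marked by lectins such as CD209a. Macrophages share the same surface integrin CD11c in the lung but are built for uptake and digestion: they carry receptors for apoptotic cells, antibody and modified lipoproteins, a large lysosomal system, and, in the alveolus, a lipid-handling programme under PPARg that clears surfactant. In the newborn lung the alveolar macrophage pool is still forming from monocyte-like precursors.

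The 11 libraries held between 1152853 and 2403861 counts in DC and between 1177993 and 1746742 in Ly6Clo. DC libraries detected 15774 to 16369 genes and Ly6Clo libraries 14308 to 15717, so the groups did not overlap in that number. Levels below are CPM, counts scaled to library size with TMM factors, means are given with the SD over libraries, and fold changes are those of an edgeR quasi-likelihood fit with litter as a block, adjusted by Benjamini-Hochberg over all genes tested and called at an adjusted p under 0.05. Each litter contributed 1 or 2 libraries to each group. Which pup or pups each library came from is not stated, so the p-values measure only the spread between these libraries, which may in part be technical. In sorted bulk samples fewer cells of a type and less RNA per cell cannot be told apart. A Ly6Clo and a DC library stood apart in T cell genes: the summed level of that list was 1086 CPM in Ly6Clo library 2 against 202 to 413 CPM in the other 4, and 578 CPM in DC library 2 against 155 to 276 CPM in the other 5. DC library 4 had the highest neutrophil sum, 1324 CPM against 175 to 502 CPM in the other 5. Ly6c1 and Ly6c2, Ear6, Apol7c, Cd209a, H2-DMb1 and H2-DMb2, and Csf2rb have close copies in the genome, and how reads were divided between copies is not given in the sources used here, so their values are less certain.

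The genes of the sort matched the labels in part. Itgax, which encodes CD11c, the integrin gated high in both populations, stood at 127, 160.4 and 192 CPM in DC (lowest, median and highest of 6) and at 157, 154, 192, 158 and 183 CPM in the 5 Ly6Clo libraries, and did not differ detectably (log2 fold change -0.10, SE 0.12, adjusted p = 0.59). Ly6c2, 1 of the genes for the Ly6C antigen, was higher in DC, at 138 ± 26.4 against 18.9 ± 6.09 CPM (log2 fold change 2.93, SE 0.19, adjusted p = 3.9e-09), and both lay below the 413 ± 65.5 CPM of normoxic Ly6Chi cells. Ly6c1 overlapped between the groups (22 ± 14.4 and 20.5 ± 9.04 CPM, adjusted p = 0.90). Siglecf, the antigen of the AM gate, was low in both, 9.61 ± 7.79 CPM in DC and 19.6 ± 10 CPM in Ly6Clo, against 129.7 ± 33.6 CPM in AM. It was called lower in DC than in Ly6Clo (log2 fold change -1.24, SE 0.34, adjusted p = 0.010), with overlapping libraries. The DC gate used MHC class II protein, so the class II genes below are a check of the sort and not an independent finding.

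H2-Ab1, the class II beta chain that marks the DC gate, stood at 886, 1193 and 1547 CPM in DC (lowest, median, highest) and at 181, 186, 129.7, 98.6 and 96.1 CPM in Ly6Clo. Every DC library was above every Ly6Clo library, by 9.06-fold in the fit (log2 fold change 3.18, SE 0.17, adjusted p = 4.9e-10). H2-Aa, its alpha chain partner, had 811, 1104 and 1402 CPM in DC and 114, 90.6, 95.8, 18.7 and 32.3 CPM in Ly6Clo (log2 fold change 4.08, SE 0.39, adjusted p = 3.7e-05). For H2-Eb1, the I-E beta chain, the values were 728, 1004 and 1267 CPM in DC and 45.5, 38.9, 28.9, 15.8 and 18.3 CPM in Ly6Clo (log2 fold change 5.12, SE 0.21, adjusted p = 5.2e-11). Ciita, the transactivator on which class II transcription depends, had the widest separation of the group. Its level was 154, 236 and 272 CPM in DC against 1.84, 3.33, 9.09, 1.44 and 2.62 CPM in Ly6Clo, a 65.5-fold difference (log2 fold change 6.03, SE 0.26, adjusted p = 5.2e-11). The mean of Ciita was 3.66 ± 3.12 CPM in Ly6Clo and 1.09 ± 1.31 CPM in AM, whereas H2-Ab1 was present in every Ly6Clo library.

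The class II genes did not move as 1 block. Of the chains of the peptide exchange factor DM, H2-DMb1 was 6.1-fold higher in DC (adjusted p = 6.6e-09) and H2-DMb2 2.57-fold (adjusted p = 5.0e-07). Their partner H2-DMa was higher by only 0.34 on the log2 scale (SE 0.12, adjusted p = 0.036), with overlapping libraries. It was not called without the litter block (adjusted p = 0.063) or in 8 of the 11 fits that left out 1 library. H2-Oa and H2-Ob encode the DM inhibitor DO. H2-Oa stood at 107 ± 12.7 CPM in DC and 14.9 ± 3.5 CPM in Ly6Clo (log2 fold change 2.83, SE 0.17, adjusted p = 2.4e-09), and H2-Ob at 138 ± 25.7 and 4.17 ± 7.03 CPM (log2 fold change 5.03, SE 0.57, adjusted p = 7.8e-05). Cd74, the invariant chain, was 2.98-fold higher in DC (log2 fold change 1.57, SE 0.14, adjusted p = 2.5e-07). Ctss, the protease that trims the invariant chain, went the other way, at 993 ± 98.7 CPM in DC and 1418 ± 222 CPM in Ly6Clo (log2 fold change -0.52, SE 0.11, adjusted p = 0.0016). The subunits of the RFX complex that binds class II promoters, Rfx5, Rfxank and Rfxap, were not called (log2 fold changes 0.58, 0.40 and 0.29). In all, 10 of the 16 class II presentation genes tested were called higher in DC and 1 lower, with a median log2 fold change of 1.47. Across all 11054 genes tested 15.6% were called higher and 14.4% lower, and the median was 0.02. Whether duplicate reads were collapsed before counting is not given in the sources used here. A correction that assumes they were, with a ceiling of 2 counts per exonic base, moved the log2 fold change from 1.57 to 2.17 for Cd74 and from 3.18 to 3.51 for H2-Ab1.

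The stretches before the start sites of 6 class II genes that were higher in DC are shown, with that of Ctss, which was lower, to compare the letters of the Y box. The Y box is an inverted CCAAT motif bound by NF-Y, part of the protein assembly on class II promoters that CIITA joins. Sequences are from RefSeq on GRCm38.p6, bases -120 to -21 from the start site on the gene's strand, with GATTGG on that strand in capitals. Both strands were searched for GATTGG, for its last 5 letters ATTGG, and for CTGATTGG, which contains both.
H2-Aa (chr17:34287844-34287943, minus strand): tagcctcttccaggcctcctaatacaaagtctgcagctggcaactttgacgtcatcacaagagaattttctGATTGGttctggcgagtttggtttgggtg
H2-Eb1 (chr17:34305747-34305846, plus strand): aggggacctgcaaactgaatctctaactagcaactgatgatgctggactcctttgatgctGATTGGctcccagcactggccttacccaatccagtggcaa
H2-DMb1 (chr17:34153071-34153170, plus strand): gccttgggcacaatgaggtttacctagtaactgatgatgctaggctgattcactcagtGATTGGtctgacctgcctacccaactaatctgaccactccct
H2-DMb2 (chr17:34145129-34145228, plus strand): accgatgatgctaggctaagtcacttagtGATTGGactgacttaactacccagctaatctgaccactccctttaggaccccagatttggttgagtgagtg
H2-Oa (chr17:34092259-34092358, plus strand): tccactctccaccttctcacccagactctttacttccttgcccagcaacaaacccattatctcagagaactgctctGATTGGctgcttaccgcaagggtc
H2-Ob (chr17:34238785-34238884, plus strand): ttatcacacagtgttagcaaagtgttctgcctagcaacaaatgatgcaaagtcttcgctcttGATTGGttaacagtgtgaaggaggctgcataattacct
Ctss (chr3:95526666-95526765, plus strand): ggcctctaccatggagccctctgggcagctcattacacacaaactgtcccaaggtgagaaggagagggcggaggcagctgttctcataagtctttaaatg
The 6 genes shown as higher in DC carried GATTGG on the gene's strand in this window, and 3 of the 6 (H2-Aa, H2-Eb1 and H2-Oa) carried the longer CTGATTGG. Of the 32851 promoters in the table, 8.64% held GATTGG on either strand in the same window and 4.55% on the gene's strand, and 2.54% held CTGATTGG on either strand. The first base of ATTGG was at -48 in H2-Aa, -59 in H2-Eb1, -61 in H2-DMb1, -90 in H2-DMb2, -43 in H2-Oa and -57 in H2-Ob. Ctss had no match to these letters in the window. Neither did 2 genes of the list that are not shown. These were H2-DMa, which was also called higher in DC, with 2 entries (log2 fold change 0.34, SE 0.12, adjusted p = 0.036), and Ifi30, with 1 (log2 fold change -0.19, SE 0.12, adjusted p = 0.28). The remaining genes of the list with an entry did match. H2-Eb2, too low to be tested, held CTGATTGG on the gene's strand. Rfx5 held GATTGG on the opposite strand. Rfxank, and Lgmn in 1 of its 2 entries, held ATTGG without the G before it. Of all promoters 19.17% held ATTGG on either strand in the window. Rfx5, Rfxank and Lgmn were not called, so matches were not confined to genes higher in DC. Of the 17 genes of the class II list 13 had an entry in the table, and H2-Ab1, Cd74, Ciita and Rfxap did not. H2-Eb1 also held GATTGG on the opposite strand, read here as its reverse complement from about -35 and not in capitals. A match is a description of the letters and not of binding in these cells.

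Between the 2 normoxic populations 3311 of the 11054 genes tested were called, 1719 higher (15.6%) and 1592 lower in DC (14.4%). These shares of all genes are the background of every list count in normoxia below. The counts in the 2 directions were alike, but the sizes were not. A difference of 4-fold or more was called for 351 genes higher in DC and 148 lower, and one of 16-fold or more for 122 and 11. Without the library most marked by neutrophil genes and the one most marked by T cell genes (DC library 4 and Ly6Clo library 2) 2702 genes were called, of which 2533 were among the 3311. With the number of genes detected added to the fit 1150 genes were called. That number did not overlap between the groups, so this fit cannot tell it apart from the population. Under this fit the cDC1 list below had 15 members called higher, the conventional DC list 19, the S phase list 5 and the G2 and M list 1. The interferon list had 8 called higher and the B cell list 2. The alveolar macrophage list had 16 called lower, the lysosome list 13 and the Fc and complement list 1. Under the same fit the calls higher in DC fell from 11 to 1 for immediate early genes, from 6 to 1 for plasmacytoid DC genes and for cytokines, from 8 to 4 for cDC2 genes, from 12 to 7 for class I presentation, from 10 to 6 for C-type lectins and Siglecs, from 8 to 5 for pattern recognition receptors and from 13 to 7 for transcription factors. The calls lower in DC fell from 13 to 7 for C-type lectins and Siglecs, from 11 to 6 for pattern recognition receptors, from 11 to 5 for NRF2 genes, from 8 to 5 for coagulation genes, from 7 to 4 for non-classical monocyte genes, from 6 to 3 for integrins and adhesion and from 5 to 3 for cytokines, and rose from 5 to 8 for interstitial macrophage genes.

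**Figure D1:**
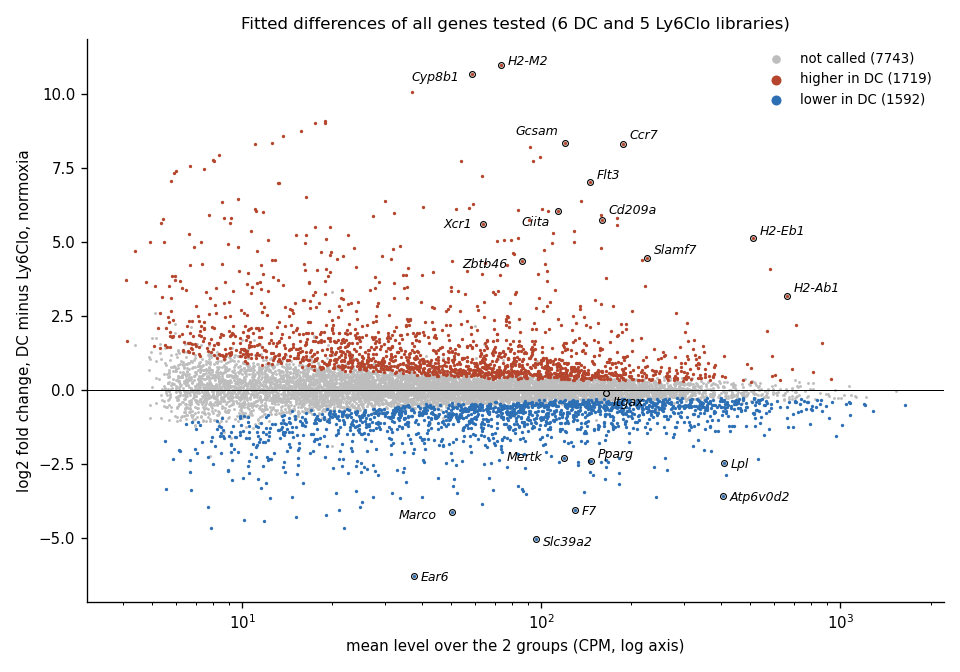
Fitted log2 fold change of each of the 11054 genes tested (y axis, DC minus Ly6Clo in normoxia) against its mean level over the 2 groups in CPM (x axis, log scale), with genes called higher in DC in red (1719), lower in blue (1592) and the rest in grey. The red tail reaches further from 0 than the blue one, and H2-M2 and Cyp8b1 had no count in Ly6Clo, so their fitted values depend on the prior count.

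Of the 12 genes with the largest differences in favour of DC, 3 had no count in any Ly6Clo library. H2-M2, a nonclassical MHC class I gene, had 107, 141 and 189 CPM in DC (lowest, median, highest), at least 351-fold above the level that 3 counts over the 5 Ly6Clo libraries together would give. Cyp8b1, known from the liver as the sterol 12-alpha-hydroxylase of bile acid synthesis, had 85, 107 and 155 CPM, at least 279.5-fold higher by the same floor. Sept3, a septin, had 47.6, 70.6 and 118 CPM, at least 177-fold higher. These 3 genes were thus present in all 6 DC libraries and unseen in all 5 Ly6Clo libraries. Ccr7 had 282, 373 and 458 CPM in DC and 0, 3.33, 0, 0 and 1.75 CPM in Ly6Clo (log2 fold change 8.31, SE 0.32, adjusted p = 2.1e-11). Gcsam, a signalling adaptor first described in germinal centre B cells, had 163, 228 and 316 CPM in DC and 0, 2.22, 0, 0 and 0.873 CPM in Ly6Clo (log2 fold change 8.34, SE 0.36, adjusted p = 5.0e-11). Apol7c, an apolipoprotein L family member, had 119, 178 and 257 CPM in DC and 0.615, 1.11, 0, 0.72 and 0 CPM in Ly6Clo (log2 fold change 8.20, SE 0.33, adjusted p = 2.5e-11). The others were Gpr141b, an orphan receptor, Cacnb3, a calcium channel subunit, Itgae (CD103), Tlr11, Flt3 and Mycl, with fitted differences of 7.85, 7.74, 7.73, 7.21, 7.01 and 6.37. The smallest p-values in this direction belonged to Slamf7, Flt3, Cldn1, Ifi205, Ccr7 and Rtl8c. Slamf7, a receptor of the SLAM family, was steady within each group, at 346, 427 and 507 CPM in DC and 18.4, 15.6, 20.6, 28.8 and 16.6 CPM in Ly6Clo (log2 fold change 4.46, SE 0.14, adjusted p = 3.2e-12).

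Genes that define conventional dendritic cells were higher in DC throughout the list. All 22 of its members that passed the filter on low counts were called higher, against a background of 15.6%, with a median log2 fold change of 4.07, and in 20 of the 22 the libraries did not overlap (7.45% of all genes tested had every DC library above every Ly6Clo library). The other 3 members of the 25 were too low to be tested. The filter keeps a gene that passes in 1 group alone. Members near 0 in Ly6Clo, such as Ccr7 and Flt3, could thus only be called higher or not at all. The lists were also chosen with earlier results of these data known. The count beside the background is therefore a description and not independent support, here and for the other cell type lists below. Flt3 stood at 240.4, 285 and 353 CPM in DC and 0.615, 2.22, 4.96, 2.88 and 0.873 CPM in Ly6Clo, a 129-fold difference (log2 fold change 7.01, SE 0.24, adjusted p = 9.7e-12). Zbtb46, the zinc finger factor that marks the conventional lineage, had 129, 165 and 209.7 CPM in DC and 6.15, 13.3, 7.43, 7.2 and 6.11 CPM in Ly6Clo (log2 fold change 4.34, SE 0.20, adjusted p = 1.1e-10). Jaml, an adhesion molecule, had 307 ± 31.3 CPM in DC and 11.1 ± 6.25 CPM in Ly6Clo (log2 fold change 4.78, SE 0.22, adjusted p = 1.1e-10). Kit, the stem cell factor receptor, showed one of the smaller differences, 58 ± 16.6 against 12.8 ± 6.36 CPM (log2 fold change 2.19, SE 0.33, adjusted p = 7.4e-05). Summed over the list, DC libraries held 3335 to 4478 CPM and Ly6Clo libraries 357 to 497 CPM. The medians of the same sum were 261 CPM in AM and 553 CPM in Ly6Chi cells.

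Genes of both conventional subsets were found. All 15 cDC1 genes tested were called higher in DC (median log2 fold change 3.52), and leaving out any 1 library left all 15 called. Clec9a, the receptor for actin exposed on dead cells, had 141, 284 and 356 CPM in DC and 6.15, 1.67, 0, 3.6 and 5.24 CPM in Ly6Clo (log2 fold change 6.36, SE 0.33, adjusted p = 1.2e-09). Xcr1, the receptor for the chemokine XCL1, ranged more widely, with 57.2, 122 and 213 CPM in DC and 0.615, 2.22, 2.48, 3.6 and 5.24 CPM in Ly6Clo (log2 fold change 5.59, SE 0.35, adjusted p = 3.5e-09). Itgae, which pairs with Itgb7 to bind E-cadherin, had 151, 177 and 255 CPM in DC and 0, 0.556, 1.65, 2.16 and 0 CPM in Ly6Clo (log2 fold change 7.73, SE 0.33, adjusted p = 4.0e-11). These 3 surface genes were near 0 in every Ly6Clo library. The factors that specify cDC1 were not: Batf3 had 26.5 ± 5.4 CPM and Irf8 232 ± 44 CPM in Ly6Clo, against 183 ± 69.1 and 906 ± 151 CPM in DC, with differences of 2.85 with SE 0.18 and 1.99 with SE 0.12 on the log2 scale. Tlr3, the endosomal sensor of double-stranded RNA in cDC1, had 306 ± 66.2 CPM in DC and 22.4 ± 11.3 CPM in Ly6Clo (log2 fold change 3.79, SE 0.30, adjusted p = 1.0e-06), and Cadm1, an adhesion molecule, 406 ± 82.9 and 37.8 ± 12.7 CPM (log2 fold change 3.52, SE 0.14, adjusted p = 2.5e-11).

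Of the 13 cDC2 genes tested, 8 were called higher in DC and 3 lower, with a median of 2.34. Cd209a had 224, 327 and 392 CPM in DC and 16.6, 0, 2.48, 7.92 and 0 CPM in Ly6Clo (log2 fold change 5.73, SE 0.58, adjusted p = 6.6e-05). Clec10a, a galactose-binding lectin, had 59.1 ± 10.4 CPM in DC and 12.3 ± 9.43 CPM in Ly6Clo (log2 fold change 2.34, SE 0.33, adjusted p = 4.4e-05). Irf4 overlapped between the groups, with 24.2, 41 and 49 CPM in DC and 26.4, 20.6, 10.7, 6.48 and 8.73 CPM in Ly6Clo, and passed the test (log2 fold change 1.46, SE 0.30, adjusted p = 0.0012). The 3 members that were lower in DC are genes that macrophages also carry. Sirpa, the CD47 receptor used to mark cDC2, had 365 ± 120.2 CPM in DC and 709 ± 89.1 CPM in Ly6Clo (log2 fold change -1.10, SE 0.13, adjusted p = 7.4e-06), Klf4 54 ± 15.9 and 132 ± 13.7 CPM (log2 fold change -1.28, SE 0.16, adjusted p = 8.7e-06), and Clec4a2 176 ± 6.86 and 287 ± 45.5 CPM (log2 fold change -0.72, SE 0.12, adjusted p = 0.00019). Of the 11 plasmacytoid DC genes tested, 6 were higher and 2 lower, the latter being Runx2 and Cox6a2. The count called higher was 4 without the litter block, 4 to 9 with 1 library left out and 1 with the number of genes detected in the fit. Siglech overlapped, with 44.1, 60.4 and 123 CPM in DC and 43, 62.3, 9.09, 2.88 and 1.75 CPM in Ly6Clo (log2 fold change 2.03, SE 0.62, adjusted p = 0.035), and Ccr9 was not called, at 16.5 ± 12 and 14.1 ± 30.6 CPM (adjusted p = 0.55). Tcf4, the factor required for plasmacytoid DC, differed by 0.63 (adjusted p = 0.016). Ccr9 depended on Ly6Clo library 2: without it the log2 fold change was 5.23 (adjusted p = 0.00018). Siglech and Tcf4 were not called without the litter block (adjusted p = 0.12 and 0.10).

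Genes of the mature or migratory state were also far higher in DC: 18 of 22 tested were called higher and 2 lower, with a median of 3.94. Beside Ccr7, the actin-bundling protein gene Fscn1 had 28, 77.6 and 120.2 CPM in DC and 1.23, 0, 0.826, 1.44 and 1.75 CPM in Ly6Clo (log2 fold change 6.18, SE 0.45, adjusted p = 2.3e-08). Ccl22, the ligand of CCR4 that attracts T cells, had 186, 331 and 400.2 CPM in DC and 0, 3.33, 0.826, 13 and 9.61 CPM in Ly6Clo (log2 fold change 5.92, SE 0.53, adjusted p = 2.4e-05). Il12b, the shared subunit of IL-12 and IL-23, had 47.2, 71.6 and 106 CPM in DC, whereas 4 of the 5 Ly6Clo libraries had none (0, 26.1, 0, 0 and 0 CPM, log2 fold change 3.88, SE 0.96, adjusted p = 0.016). The 1 Ly6Clo library with Il12b was library 2, the one with the T cell genes. The 2 genes that were lower in DC are the ligands of the inhibitory receptor PD-1. Cd274, which encodes PD-L1, had 55, 87.4 and 127 CPM in DC and 212, 169, 202, 276 and 242 CPM in Ly6Clo (log2 fold change -1.32, SE 0.17, adjusted p = 2.0e-05), with every DC library below every Ly6Clo library. Pdcd1lg2, which encodes PD-L2, had 15.4 ± 4.56 CPM in DC and 27.7 ± 6.28 CPM in Ly6Clo (log2 fold change -0.82, SE 0.27, adjusted p = 0.029), and was not called when DC library 1, 3 or 4 or Ly6Clo library 1 or 3 was left out (adjusted p up to 0.074).

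**Figure D2:**
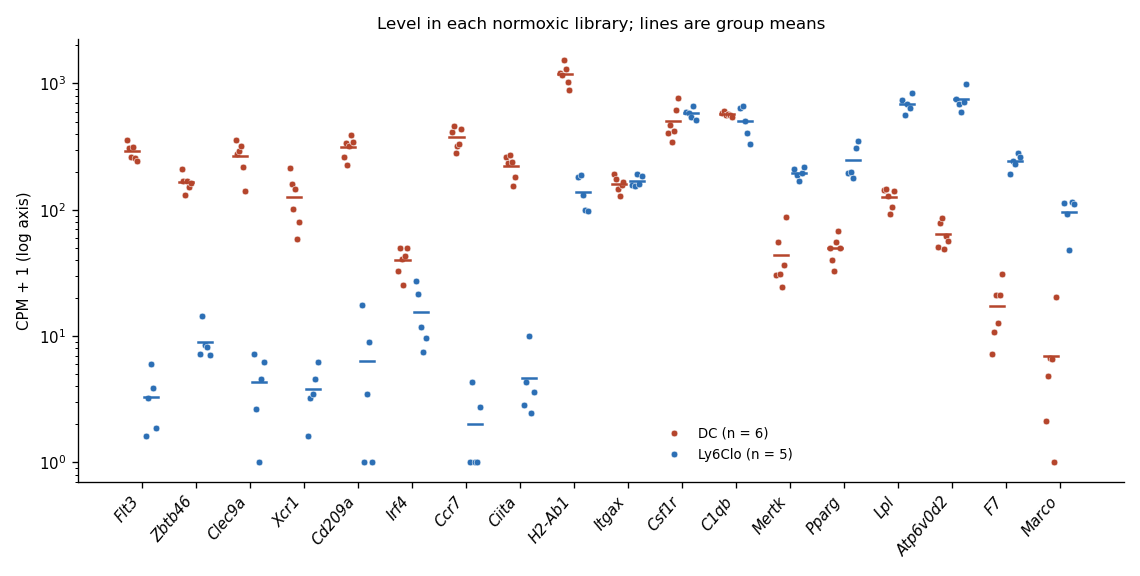
Level of 18 genes in each normoxic library (y axis, CPM + 1 on a log scale), with DC libraries in red (n = 6), Ly6Clo libraries in blue (n = 5) and lines at the group means. From Flt3 to H2-Ab1 the DC points lie above, apart from an overlap in Irf4. Itgax, Csf1r and C1qb overlap, and from Mertk to Marco every Ly6Clo point lies above the DC points.

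Transcription factors separated the populations in both directions: of 39 tested, 13 were higher and 13 lower in DC. Mycl, a MYC family member used by cDC1, had 43.7, 55.5 and 96.4 CPM in DC, and 4 of the 5 Ly6Clo libraries had none (3.07, 0, 0, 0 and 0 CPM, log2 fold change 6.37, SE 0.50, adjusted p = 6.3e-08). On the other side, Pparg, the nuclear receptor of the alveolar macrophage programme, had 31.6, 49.1 and 67.2 CPM in DC and 195, 197, 178, 307 and 348 CPM in Ly6Clo (log2 fold change -2.40, SE 0.17, adjusted p = 1.9e-08). Bhlhe41, which restrains proliferation of alveolar macrophages, had 1.09, 6.21 and 10.7 CPM in DC and 74.4, 62.3, 78.5, 82.8 and 70.7 CPM in Ly6Clo (log2 fold change -3.63, SE 0.29, adjusted p = 6.8e-08). Tfec, a member of the MITF family, had 45 ± 23.1 CPM in DC and 220.3 ± 47.7 CPM in Ly6Clo (log2 fold change -2.52, SE 0.16, adjusted p = 3.8e-09). Zeb2 and Cebpb were also lower in DC, at 242 ± 35.3 against 504 ± 133 CPM (adjusted p = 3.8e-06) and 240.1 ± 22.9 against 429.6 ± 66.2 CPM (adjusted p = 6.8e-06).

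Of 19 receptors for growth factors and cytokines, 4 were higher (Flt3, Kit, Acvrl1 and Ifnar1) and 5 lower in DC, beside 15.6% and 14.4% of all genes. Csf1r, the receptor for the macrophage growth factor CSF1, had 346, 446 and 773 CPM in DC and 599, 583, 544, 659 and 517 CPM in Ly6Clo, and was not called (log2 fold change -0.32, SE 0.15, adjusted p = 0.12). Csf2ra, the alpha chain of the GM-CSF receptor, was not called either (274 ± 49.3 and 322 ± 34.5 CPM, adjusted p = 0.20), while its beta chain Csf2rb was lower in DC (309.6 ± 15.1 and 424 ± 23.2 CPM, log2 fold change -0.46, SE 0.09, adjusted p = 0.0011). Tgfbr2, the type II receptor for TGF-beta, was 2.51-fold lower in DC, at 78 ± 13.6 against 192 ± 25.6 CPM (log2 fold change -1.32, SE 0.15, adjusted p = 3.9e-06). Csf1r was called lower in DC without Ly6Clo library 5 (log2 fold change -0.55, adjusted p = 0.0025) or without DC library 6 (adjusted p = 0.041), and Csf2ra without DC library 3 (adjusted p = 0.042).

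Macrophage genes gave the opposite picture in direction and a smaller one in size. All 36 genes of the macrophage core list that were tested were called lower in DC, against a background of 14.4%, with a median log2 fold change of -1.08. Between 33 and 36 were called when any 1 library was left out, and 32 without DC library 4 and Ly6Clo library 2. Without the litter block 28 were called, and with the number of genes detected in the fit 25. Mertk, the receptor tyrosine kinase for apoptotic cells, had 23.6, 32.6 and 86.1 CPM in DC and 209, 186, 167, 194 and 216 CPM in Ly6Clo (log2 fold change -2.30, SE 0.23, adjusted p = 1.3e-06). Fcgr1, which encodes CD64, overlapped between the groups, at 168, 219.8 and 266 CPM in DC and 279, 285, 256, 255 and 305 CPM in Ly6Clo (log2 fold change -0.39, SE 0.10, adjusted p = 0.0064). Adgre1, which encodes F4/80, overlapped too (365 ± 119 and 476 ± 61.9 CPM, log2 fold change -0.52, SE 0.12, adjusted p = 0.0027). Adgre1 was not called without the litter block (adjusted p = 0.13). Of these 3, Mertk alone separated every DC from every Ly6Clo library. C1qa, C1qb and C1qc, the complement chains of interstitial macrophages, were not called: C1qb had 541, 569 and 599 CPM in DC and 634, 664, 501, 404 and 329 CPM in Ly6Clo (log2 fold change 0.24, adjusted p = 0.20). AM had 20 ± 18.2 CPM of C1qb and Ly6Chi cells 130.0 ± 34.4 CPM. Of the 18 interstitial macrophage and C1q genes tested, 1 (Tmem119) was higher and 5 lower in DC, and their summed level overlapped between the groups (3125 to 4627 CPM in DC and 3765 to 5965 CPM in Ly6Clo). Without DC library 1 or Ly6Clo library 2, C1qa was called higher in DC (adjusted p = 0.031 and 0.038), and Tmem119 was not called in 7 of the 11 fits that left out 1 library. The part of interstitial macrophages in either group's values was not tested.

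Alveolar macrophage genes had the lowest median of the 40 lists. Of 21 tested, 19 were called lower in DC and none higher, with a median of -2.60, and 19 were called whichever library was left out. In 18 of the 21 every DC library lay below every Ly6Clo library, against 7.64% of all genes tested. Ear6, an eosinophil-associated ribonuclease, had the largest difference of all genes lower in DC, with 0, 1.33 and 1.86 CPM in DC and 89.2, 65, 57.8, 43.9 and 115 CPM in Ly6Clo (log2 fold change -6.30, SE 0.39, adjusted p = 3.3e-09). Slc39a2, a zinc importer, had 1.86, 5.07 and 11.9 CPM in DC and 167, 225, 102, 196 and 241 CPM in Ly6Clo (log2 fold change -5.04, SE 0.30, adjusted p = 3.5e-09). Marco, a scavenger receptor for particles and bacteria, had 0, 4.7 and 19.3 CPM in DC and 112, 91.7, 47.1, 115 and 109 CPM in Ly6Clo (log2 fold change -4.14, SE 0.64, adjusted p = 0.00094). All 3 were low or absent in most DC libraries. F7, coagulation factor VII, had 6.2, 15.9 and 29.9 CPM in DC and 191, 241, 231, 283 and 263 CPM in Ly6Clo (log2 fold change -4.06, SE 0.22, adjusted p = 7.1e-10). Atp6v0d2, a subunit of the lysosomal proton pump, had 47.8, 58.4 and 85 CPM in DC and 756, 689.8, 591, 709 and 989 CPM in Ly6Clo, a 12.1-fold difference (log2 fold change -3.60, SE 0.17, adjusted p = 1.6e-10). Fabp4, a fatty acid carrier, had 2.72, 17.6 and 31.6 CPM in DC and 121, 111, 223, 122 and 228 CPM in Ly6Clo (log2 fold change -3.52, SE 0.29, adjusted p = 2.5e-07). The libraries of the 2 groups did not overlap in any of these 6 genes. The other genes among the 12 largest in this direction were Mcoln3, an endolysosomal cation channel, Sh3bgrl2, Bhlhe41, Gpnmb, Cd200r4 and Ahnak2. Sort1, the sorting receptor sortilin, had the smallest p-value of the genes lower in DC (48.3 ± 14 and 314 ± 56.9 CPM, log2 fold change -2.80, SE 0.13, adjusted p = 1.1e-10), followed by Atp6v0d2, Klhdc4, Abcc5, Plet1 and Olr1. Siglecf itself was not called without the litter block (adjusted p = 0.15).

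Levels in the other 2 normoxic populations place both sets of genes. All 148 genes at least 4-fold lower in DC had a higher mean in AM than in DC, against 44.4% of all genes tested. Of the 148, 120 (81.1%) had a higher mean in AM than in Ly6Clo, against 46.0% of all genes. In Ly6Chi cells 79 (53.4%) had a higher mean than in DC, against 46.6% of all genes. Only 5 of the 148 (3.38%) had a higher mean in Ly6Chi than in Ly6Clo cells, against 50.2% of all genes. Atp6v0d2 had a mean of 62.9 ± 15.3 CPM in DC, 747 ± 148 CPM in Ly6Clo, 1265 ± 128 CPM in AM and 61.3 ± 42.9 CPM in Ly6Chi cells. Marco was likewise highest in AM, with 259 ± 41 CPM in AM and 5.92 ± 3.98 CPM in Ly6Chi cells. Of the 351 genes at least 4-fold higher in DC, 6 had a higher mean in AM than in DC (1.71%, against 44.4% of all genes). A higher mean in Ly6Chi cells than in DC was found for 23 (6.55%, against 46.6%). Ly6Chi cells had a higher mean than Ly6Clo cells in 235 of the 351 (67.0%, against 50.2%), and AM in 157 (44.7%, against 46.0%). These are descriptions of means with no test, and the genes were chosen with the DC and Ly6Clo values that the counts use.

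**Figure D3:**
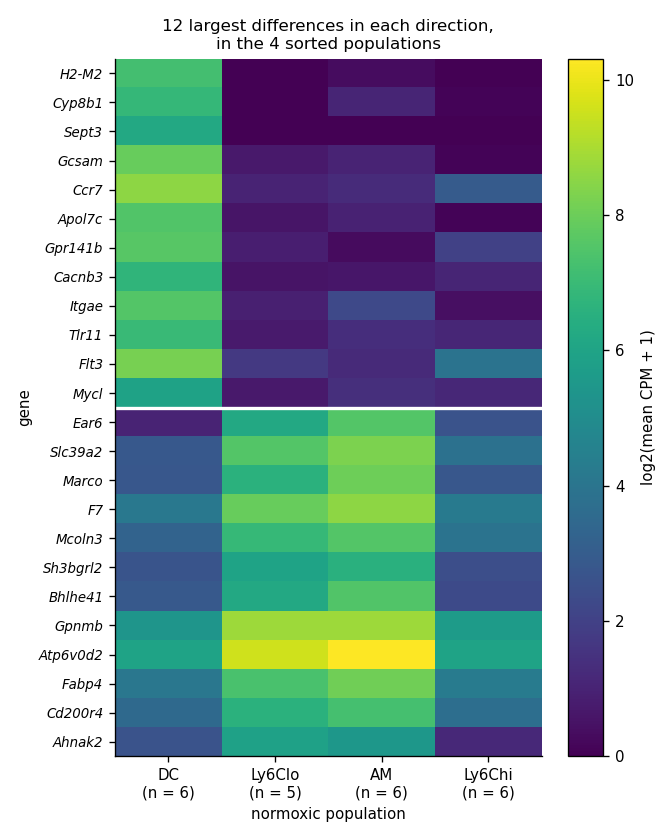
Mean level in the 4 normoxic populations (columns, colour scale log2 of mean CPM + 1) of the 12 genes with the largest difference in each direction (rows; upper 12 higher in DC, lower 12 lower in DC). The upper genes are brightest in the DC column, and 10 of the lower 12 are brightest in the AM column.

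Receptors for uptake and the digestive system they feed were lower in DC. Of 22 scavenger and efferocytosis receptor genes tested, 16 were lower and 2 higher, Havcr2 and the apoptotic cell bridging protein gene Mfge8 (log2 fold change 0.60, adjusted p = 0.023). Without the litter block 11 were called lower, and with the number of genes detected in the fit 12. Mrc1, the mannose receptor, had 83.2, 164 and 202 CPM in DC and 726, 608, 499, 362 and 569 CPM in Ly6Clo (log2 fold change -2.03, SE 0.14, adjusted p = 9.6e-09). Axl, a kinase related to Mertk, had 284 ± 88.4 CPM in DC and 597 ± 106 CPM in Ly6Clo (log2 fold change -1.21, SE 0.12, adjusted p = 7.6e-07), and Olr1, the receptor for oxidised LDL, 39.6 ± 16.5 and 288 ± 87.8 CPM (log2 fold change -3.02, SE 0.16, adjusted p = 4.9e-10). Of 35 lysosomal genes, 26 were lower and none higher, with a median of -0.65. Ctsd, an aspartic protease, had 325, 509 and 748 CPM in DC and 1181, 1337, 1094, 1488 and 1955 CPM in Ly6Clo (log2 fold change -1.56, SE 0.12, adjusted p = 4.0e-08). Atp6v1a, a further proton pump subunit, had 141 ± 8.08 CPM in DC and 310.4 ± 20.7 CPM in Ly6Clo (log2 fold change -1.13, SE 0.10, adjusted p = 2.6e-07), and Lipa, the lysosomal acid lipase, 235 ± 80 and 500.0 ± 133 CPM (log2 fold change -1.21, SE 0.14, adjusted p = 6.8e-06). Ctsk, a collagen-degrading protease, varied widely within both groups and was not called (126 ± 130.4 and 199 ± 130.0 CPM, adjusted p = 0.50). Mfge8 was not called without DC library 2 or Ly6Clo library 1 or 5 (adjusted p up to 0.16).

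Lipid handling followed the lysosome. Of 30 genes for lipid uptake, storage and export, 21 were lower in DC and none higher. Without the litter block 19 were called lower, and with the number of genes detected in the fit 15. Lpl, the lipase that releases fatty acids from lipoproteins, had 91.3, 135 and 145 CPM in DC and 735, 558, 682, 636 and 834 CPM in Ly6Clo (log2 fold change -2.48, SE 0.14, adjusted p = 7.2e-10). Abcg1, the cholesterol exporter, had 31.6, 55.7 and 81.7 CPM in DC and 259, 245, 289, 269 and 302 CPM in Ly6Clo (log2 fold change -2.37, SE 0.17, adjusted p = 2.0e-08). Plin2, which coats lipid droplets, was closer, at 477, 662 and 683 CPM in DC and 1115, 1153, 981, 1221 and 1522 CPM in Ly6Clo (log2 fold change -0.95, SE 0.11, adjusted p = 3.0e-06). The libraries of the groups were apart for all 3. Of 18 genes for cholesterol synthesis, 2 were higher and 1 (Mvd) lower, against 15.6% and 14.4% of all genes, and with 1 library left out 1 to 3 in each direction.

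Receptors for antibody and complement, clotting factors and matrix genes leaned to Ly6Clo cells. Of 17 Fc and complement receptor genes, 8 were lower in DC and none higher, beside 14.4% and 15.6% of all genes. Fcgr4, an activating receptor for IgG, had 138 ± 20.2 CPM in DC and 286 ± 81.7 CPM in Ly6Clo (log2 fold change -1.03, SE 0.14, adjusted p = 2.0e-05), and C5ar1, the receptor for complement C5a, 220.2 ± 77.1 and 447 ± 111 CPM (log2 fold change -1.15, SE 0.19, adjusted p = 0.00022). Of 11 coagulation genes, 8 were lower and 1, Procr, higher. F10, coagulation factor X, had 32.7, 40.3 and 64.8 CPM in DC and 201, 225, 216, 298 and 268 CPM in Ly6Clo (log2 fold change -2.41, SE 0.18, adjusted p = 3.5e-08), and Plaur, the urokinase receptor, 219.6 ± 52.4 and 539 ± 80.6 CPM (log2 fold change -1.38, SE 0.12, adjusted p = 1.3e-07). Both F7 and F10, which act in sequence in the extrinsic pathway, were thus lower in DC. Of 22 genes for tissue growth factors and remodelling, 9 were lower, among them Igf1 (44 ± 16.9 and 111 ± 41.4 CPM), Hgf (7.13 ± 2.36 and 23.7 ± 6.62 CPM), Gpnmb and Mmp19. The 3 that were higher in DC, a share close to that of all genes, were proteases. Adam8, a membrane metalloprotease, had 161, 191 and 232 CPM in DC and 14.1, 22.8, 14.9, 11.5 and 12.2 CPM in Ly6Clo (log2 fold change 3.68, SE 0.17, adjusted p = 1.1e-10), and Mmp12, the macrophage elastase, 319.7, 638 and 709 CPM in DC and 293, 391, 84.3, 239.6 and 256 CPM in Ly6Clo (log2 fold change 1.13, SE 0.21, adjusted p = 0.00093). The third, Mmp14, had an adjusted p of 0.049 and was not called in 9 of the 11 fits that left out 1 library. Procr was not called without DC library 4 and Ly6Clo library 2 together (adjusted p = 0.055).

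Of 17 genes of non-classical monocytes, for which the name Ly6Clo is also used, 7 were called lower in DC, against 14.4% of all genes, and none higher, with a median of -0.61. Their summed level was 2413 to 3180 CPM in DC and 3433 to 5712 CPM in Ly6Clo, without overlap. The 4 genes chosen as defining that monocyte type were not called: Nr4a1, the factor they depend on, had 78.2 ± 37.5 CPM in DC and 86.7 ± 29 CPM in Ly6Clo (adjusted p = 0.77), Adgre4 309 ± 91.8 and 393 ± 203 CPM (adjusted p = 0.60), Treml4 180.1 ± 58.8 and 312 ± 144 CPM (adjusted p = 0.14) and Spn, which encodes CD43, 22.5 ± 11.8 and 52.3 ± 44.3 CPM (adjusted p = 0.050). Classical monocyte genes divided evenly, with 5 of 17 higher (among them Ly6c2, Ms4a4c, Plac8 and Ccr2) and 5 lower (Ms4a8a, Mgst1, Fn1, Clec4e and Chil3, the last named after its value was seen). Ccr2, the receptor for monocyte entry into tissue, had 1054 ± 99.6 CPM in DC and 809 ± 163 CPM in Ly6Clo (log2 fold change 0.35, SE 0.11, adjusted p = 0.021), against 82.1 ± 32.1 CPM in AM. Ms4a8a, an MS4A family member, was lower in DC by 6.87-fold (39.9 ± 14.6 and 250.1 ± 43.7 CPM, log2 fold change -2.78, SE 0.15, adjusted p = 4.9e-10). Spn was called lower without DC library 1 or 6 or Ly6Clo library 2 or 5 (adjusted p down to 0.026) and Treml4 without DC library 1 (adjusted p = 0.049), while Ccr2 was not called without the litter block (adjusted p = 0.054), DC library 1 or Ly6Clo library 2, nor Plac8 without the block (adjusted p = 0.26).

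**Figure D4:**
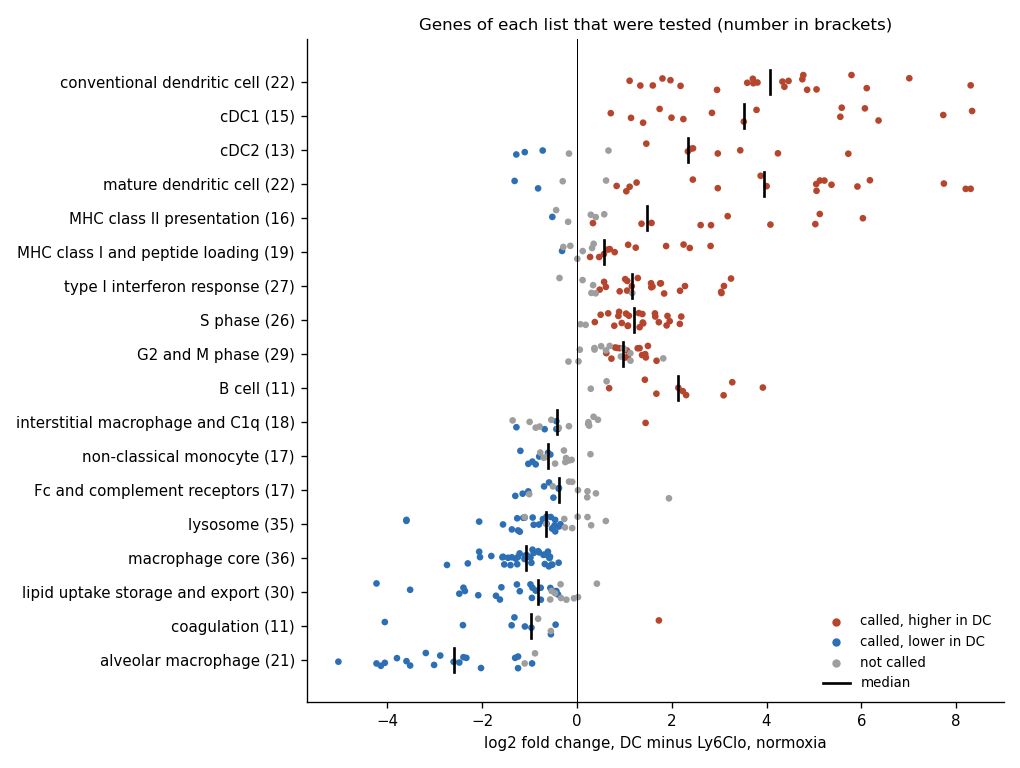
Log2 fold change (x axis, DC minus Ly6Clo in normoxia) of each tested member of 18 gene lists (rows, number tested in brackets), with called genes in red (higher in DC) or blue (lower in DC), others in grey, and a black bar at the list's median. The medians of the conventional, cDC1, cDC2 and mature dendritic cell lists lie between 2.34 and 4.07, and that of the alveolar macrophage list at -2.60.

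Of 16 chemokine receptor genes tested, 7 were called higher in DC and 1 lower, beside 15.6% and 14.4% of all genes. Beside Ccr7 and Xcr1, Cxcr3, the receptor for interferon-induced chemokines, had 145, 185 and 255 CPM in DC and 9.84, 9.45, 9.09, 28.8 and 6.11 CPM in Ly6Clo (log2 fold change 4.03, SE 0.28, adjusted p = 2.5e-08), and Ccr6, the receptor for CCL20, 16.3 ± 6.3 and 0.826 ± 1.85 CPM (log2 fold change 4.27, SE 0.72, adjusted p = 0.00024). Ccr1 was the 1 that was lower (log2 fold change -0.36, adjusted p = 0.030), and Cx3cr1, the fractalkine receptor, was not called (246 ± 78 and 258 ± 64.5 CPM, adjusted p = 0.59). Ccr1 was not called without the litter block (adjusted p = 0.46), and Cx3cr1 was called lower without Ly6Clo library 5 (log2 fold change -0.50, adjusted p = 0.0096). The ligands split 4 to 4 of 20 tested, close to the shares of all genes. Higher in DC were the T cell attractants Ccl22, Ccl5 (249 ± 110.3 and 7.04 ± 11.8 CPM, log2 fold change 5.37, SE 0.59, adjusted p = 0.00012), Ccl17 (186 ± 86.2 and 27.8 ± 33.9 CPM, log2 fold change 2.97, SE 0.64, adjusted p = 0.0086) and Cxcl16 (472 ± 25 and 131 ± 58.6 CPM, log2 fold change 1.96, SE 0.21, adjusted p = 5.6e-06). Lower in DC were Ccl6 (625 ± 97.9 and 1402 ± 241 CPM, log2 fold change -1.17, SE 0.13, adjusted p = 3.2e-06), Ccl9, Ccl3 and Cxcl14. In the cytokine list 6 of 17 were higher in DC and 5 lower, and members of the IL-1 family were among those lower. Il1rn, the IL-1 receptor antagonist, had 164 ± 44.4 CPM in DC and 506 ± 122 CPM in Ly6Clo (log2 fold change -1.70, SE 0.15, adjusted p = 1.6e-07), Il18 134 ± 17.8 and 329 ± 64 CPM (log2 fold change -1.31, SE 0.13, adjusted p = 9.3e-07), and Il1a 58.6 ± 27.8 and 193 ± 46.9 CPM (log2 fold change -1.77, SE 0.33, adjusted p = 0.0018). Tnfsf13b, the B cell survival factor BAFF, was higher in DC (34 ± 11.3 and 4.87 ± 2.22 CPM, log2 fold change 2.68, SE 0.33, adjusted p = 1.1e-05).

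Sensors of microbes differed in both directions. Of 24 pattern recognition receptor genes tested, 8 were higher and 11 lower in DC. The list counts of this paragraph stand beside 15.6% of all genes called higher and 14.4% called lower. The endosomal receptors Tlr11 and Tlr12, which sense protozoan profilin, and Tlr3 were higher, Tlr11 at 98, 118 and 190.0 CPM in DC and 0.615, 2.78, 0, 0 and 0 CPM in Ly6Clo (log2 fold change 7.21, SE 0.39, adjusted p = 7.0e-10). Tlr12 was low, at 9.61 ± 5.07 and 0.222 ± 0.497 CPM (log2 fold change 5.01, SE 0.73, adjusted p = 5.6e-05). Tlr2, Tlr4, Tlr7 and Tlr8 were lower in DC, with log2 fold changes of -1.07, -0.96, -1.57 and -1.35. For Tlr7, a sensor of single-stranded RNA, the values were 36.4, 50.5 and 86.5 CPM in DC and 161, 145, 173, 168 and 147 CPM in Ly6Clo (log2 fold change -1.57, SE 0.17, adjusted p = 1.7e-06). Without DC library 4, 4 of the list were called higher in place of 8, and without the litter block Tlr4 was not called (adjusted p = 0.12). C-type lectins and Siglecs also split, with 10 of 27 higher and 13 lower: Clec9a, Cd209a and Siglecg (157 ± 27 and 31.8 ± 12.6 CPM) were among the higher, and Clec7a, the beta-glucan receptor (499 ± 65.3 and 1083 ± 209 CPM, log2 fold change -1.16, SE 0.11, adjusted p = 4.5e-07), Mrc1 and Siglec1 (8.24 ± 4.2 and 40.3 ± 11.8 CPM, log2 fold change -2.41, SE 0.31, adjusted p = 1.3e-05) among the lower. Ly75, which encodes DEC-205 and is used as a DC marker in other tissues, was lower in DC than in Ly6Clo, at 51.5, 76.5 and 83.9 CPM against 138, 93.4, 155, 138 and 143 CPM (log2 fold change -0.86, SE 0.16, adjusted p = 0.00056), and stood at 309.8 ± 53 CPM in AM. Of the integrin and adhesion genes, 9 of 26 were higher and 6 lower. Itgb7 had 276 ± 42.3 CPM in DC and 39.8 ± 17.9 CPM in Ly6Clo (log2 fold change 2.90, SE 0.19, adjusted p = 4.9e-09), and Cd44, the hyaluronan receptor, 385, 421 and 432 CPM in DC and 968, 804, 1013, 1049.9 and 1024 CPM in Ly6Clo (log2 fold change -1.24, SE 0.10, adjusted p = 4.6e-08).

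Genes of MHC class I presentation and of the type I interferon response were higher in DC. Of 19 class I and peptide loading genes, 12 were called higher and 1 (Canx) lower, with a median of 0.57. Tap1, the peptide transporter, had 160.2, 212 and 297 CPM in DC and 38.7, 50, 57.8, 50.4 and 36.7 CPM in Ly6Clo (log2 fold change 2.25, SE 0.15, adjusted p = 5.8e-09), and Nlrc5, the class I counterpart of Ciita, 40.5 ± 10.4 and 7.75 ± 4.37 CPM (log2 fold change 2.38, SE 0.32, adjusted p = 2.2e-05). B2m, the shared light chain, was not called (633 ± 156 and 774 ± 134 CPM, adjusted p = 0.13), except lower without DC library 3 (adjusted p = 0.031). Canx was not called without Ly6Clo library 1 (adjusted p = 0.058). Of 27 interferon response genes, 21 were higher and none lower, with a median of 1.17. Mx1 had 66.7, 142 and 158 CPM in DC and 16, 21.1, 19, 15.1 and 1.75 CPM in Ly6Clo (log2 fold change 3.25, SE 0.23, adjusted p = 1.8e-08), and Isg15 44.9 ± 9.68 and 9.8 ± 3.55 CPM (log2 fold change 2.28, SE 0.24, adjusted p = 1.4e-06). Usp18, the brake on the interferon receptor, had 175 ± 43.5 CPM in DC, 21.2 ± 6.56 CPM in Ly6Clo, 6.59 ± 7.49 CPM in AM and 230.3 ± 43.9 CPM in Ly6Chi cells (log2 fold change 3.10, SE 0.21, adjusted p = 8.3e-09 for DC minus Ly6Clo). Leaving out 1 library gave 16 to 23 calls, the lowest without Ly6Clo library 5.

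Many cell cycle genes were called higher in DC, though their levels mostly overlapped between the groups. Of 26 S phase genes, 24 were called higher and none lower, with a median of 1.20, and of 29 G2 and M phase genes 15 were called higher and none lower, with a median of 0.98. Of all genes tested, 15.6% were called higher and 14.4% lower. Mcm2, a subunit of the replicative helicase, had 67.7, 103 and 139 CPM in DC and 41.8, 64.5, 41.3, 21.6 and 45.4 CPM in Ly6Clo (log2 fold change 1.30, SE 0.22, adjusted p = 0.00019). Mki67, the proliferation antigen, was not called, with 60.1, 121 and 171 CPM in DC and 116, 162, 78.5, 96.4 and 55 CPM in Ly6Clo (log2 fold change 0.37, SE 0.17, adjusted p = 0.12), and neither was Pcna, the polymerase clamp (log2 fold change 0.18, adjusted p = 0.37). The summed S phase level was 1848 to 2937 CPM in DC and 767 to 1870 CPM in Ly6Clo, the highest being Ly6Clo library 2, so the groups overlapped by that 1 library. The summed G2 and M level was 1422 to 2856 CPM in DC and 637 to 2617 CPM in Ly6Clo, and the groups overlapped. The median S phase sum was 2438 CPM in DC, 1164 CPM in Ly6Clo, 1987 CPM in normoxic AM and 1747 CPM in normoxic Ly6Chi cells. For G2 and M the medians were 2167, 1182, 3224 and 2503 CPM in the same order, so DC were not the highest. Every DC library was above every Ly6Clo library for 5 of the 26 S phase genes and 1 of the 29 G2 and M genes. The same held for 7.45% of all genes tested. Without the litter block, 2 of the 29 G2 and M genes and 19 of the 26 S phase genes were called, and leaving out 1 library gave 10 to 22 G2 and M calls, fewest without Ly6Clo library 5. Immediate early genes, which respond to handling and dissociation, were called higher in 11 of 21 and lower in 2 (Egr2 and Ier3), in 5 and 1 without the litter block, and in 1 and 2 with the number of genes detected in the fit. Egr1 had 175 ± 34.9 CPM in DC and 77.3 ± 39.7 CPM in Ly6Clo (log2 fold change 1.34, SE 0.18, adjusted p = 2.5e-05), while Fos (log2 fold change 0.09, adjusted p = 0.57) and Jun (log2 fold change 0.28, adjusted p = 0.19) were not called. Of 24 antioxidant genes under NRF2, 11 were lower in DC and 3 higher (Gclc, Prdx6 and Sod1), the latter close to the share of all genes. Gstm1, a glutathione transferase, had 68.3 ± 11.9 CPM in DC and 216 ± 10.9 CPM in Ly6Clo (log2 fold change -1.71, SE 0.13, adjusted p = 5.7e-08), whereas Hmox1 was not called (adjusted p = 0.37) and Nqo1 was too low to be tested. Hmox1 was called lower without DC library 4 (log2 fold change -0.62, adjusted p = 0.027), and Ier3 and Sod1 were not called without the litter block (adjusted p = 0.089 and 0.098).

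B cell markers moved with the DC group. Of 11 B cell genes tested, 9 were called higher in DC, with a median of 2.14, and their summed level was 932 to 1932 CPM in DC and 320 to 698 CPM in Ly6Clo, without overlap. Cd79a, the signalling chain of the B cell receptor, had 59.9, 145 and 168 CPM in DC and 53.5, 22.2, 27.3, 16.6 and 21.8 CPM in Ly6Clo (log2 fold change 2.14, SE 0.32, adjusted p = 0.00020). Pax5, the B cell lineage factor, was too low to be tested (4.58 ± 2.2 and 0.619 ± 1.07 CPM). B cells also carry MHC class II and Ciita, and their part in the class II and dendritic cell list differences was not tested. Without DC library 4 and Ly6Clo library 2, 7 B cell genes were called. T and NK cell genes gave 1 higher (Il2ra) and 1 lower (Cd2) of 5 tested, with Cd3e at 0, 31.1, 1.62, 0, 0 and 0 CPM in the 6 DC libraries and 0, 58.9, 0, 0 and 0 CPM in the 5 Ly6Clo libraries. Of 6 neutrophil genes tested 2 were lower in DC (Csf3r and S100a8), of 14 epithelial genes 3 were higher (Epcam, Krt8 and Krt18) and 1 lower (Hopx), and of 13 endothelial genes 1 was lower (Vwf). Of 3 mesenchymal genes and of 1 gene each from the erythroid list and the list for mast cells, basophils, eosinophils and platelets, none was called. Without DC library 4 and Ly6Clo library 2, 1 epithelial gene was called higher, and Vwf had an adjusted p of 0.15. Without the litter block S100a8 was not called (adjusted p = 0.14). Epcam, an adhesion molecule that dendritic cells can carry, was the strongest of the epithelial genes (59.4 ± 14.6 and 11.7 ± 7.04 CPM, log2 fold change 2.40, SE 0.27, adjusted p = 3.1e-06). Sftpc, the surfactant protein gene of alveolar type II cells, was found in both groups at 567 ± 296 and 551 ± 361 CPM, and did not differ detectably (log2 fold change -0.04, adjusted p = 0.97).

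The comparison was repeated in the 10 hyperoxic libraries, which share litters with the normoxic ones but no library. There 2861 of 10816 genes tested were called, 1419 higher (13.1%) and 1442 lower in DC (13.3%). Without the litter block 1630 were called. Of the 3311 genes called in normoxia, 3187 were tested in hyperoxia, 3100 of these had the same sign, 2087 were called with the same sign and 0 were called with the opposite one. Hyperoxic Ly6Clo libraries 3 and 5 stood apart from the other 3 in several genes given below. In hyperoxic DC, libraries 3 and 5 stood apart in Flt3 and Slamf7 but not in H2-M2. Flt3 had 251, 264, 119, 259 and 181 CPM in hyperoxic DC libraries 1 to 5 and 2.37, 4.13, 6.34, 0.497 and 0 CPM in hyperoxic Ly6Clo libraries 1 to 5, so DC libraries 3 and 5 were the lowest of their group and the groups did not overlap. Flt3 differed by 6.73 on the log2 scale in hyperoxia (SE 0.47, adjusted p = 2.8e-06) against 7.01 in normoxia, Clec9a by 4.56 (adjusted p = 1.4e-05) against 6.36, and Ccr7 by 8.36 (adjusted p = 4.0e-07) against 8.31. For Mertk the difference was -1.89 (adjusted p = 1.8e-06) against -2.30, and for F7 -3.64 (adjusted p = 4.1e-07) against -4.06. All 12 genes with the largest normoxic difference lower in DC, and 11 of the 12 higher in DC, were called with the same sign in hyperoxia. By list, the calls higher in DC in hyperoxia were 19 of 22 conventional DC genes, 14 of 15 cDC1 genes, 15 of 22 mature DC genes, 17 of 27 interferon genes, 24 of 26 S phase genes and 28 of 30 G2 and M genes, against 13.1% of all genes tested. The calls lower in DC were 18 of 21 alveolar macrophage genes, 21 of 35 macrophage core genes and 19 of 35 lysosomal genes, against 13.3% of all. Other lists gave counts unlike those in normoxia, and these differences between counts were not tested. Of 19 class I presentation genes 4 were called higher, where 12 were in normoxia, and 12 without libraries 3 and 5 of both hyperoxic populations. Of 16 Fc and complement receptor genes 3 were lower and 2 higher, where 8 and 0 were in normoxia, and 7 and 3 without those libraries. Of 18 interstitial macrophage and C1q genes 0 were lower and 2 higher, where 5 and 1 were in normoxia, and 7 and 3 without those libraries. Of 17 non-classical monocyte genes 3 were lower and 0 higher, with a median of 0.23, where 7 were lower and 0 higher in normoxia, and 6 and 5 without those libraries. The exception among the largest differences was H2-M2, at 34.4, 64.7, 56.9, 111 and 48.4 CPM in hyperoxic DC libraries 1 to 5 and 0, 0, 17.4, 0 and 46.8 CPM in hyperoxic Ly6Clo libraries 1 to 5 (log2 fold change 2.64, adjusted p = 0.13). Slamf7, with the smallest p in normoxia, was not called in hyperoxia either, with 376, 340.4, 502, 341 and 429 CPM in DC and 7.11, 40.5, 337, 21.8 and 304 CPM in Ly6Clo (log2 fold change 1.96, adjusted p = 0.17). In both genes hyperoxic Ly6Clo libraries 3 and 5 stood above the other 3, and Tap1 showed the same split, with 30.8, 50.4, 334, 38.7 and 227 CPM in hyperoxic Ly6Clo libraries 1 to 5. Without libraries 3 and 5 of both populations 3616 genes were called in hyperoxia. Leaving them out removed the only hyperoxic libraries of litter 100. It was decided after the values of H2-M2, Slamf7 and Tap1 were seen. That these 3 genes were then called higher in DC (adjusted p = 3.75e-05, 0.000168 and 2.93e-06) is therefore a description and not a test. The log2 fold change without these libraries was 6.91 for Flt3, 5.32 for Clec9a, 10.01 for Ccr7 and -1.87 for Mertk. The calls higher in DC were then 22 of 23 conventional DC genes, 15 of 15 cDC1 genes, 18 of 22 mature DC genes, 19 of 27 interferon genes, 25 of 26 S phase genes and 29 of 30 G2 and M genes. The calls lower were 19 of 21 alveolar macrophage, 30 of 35 macrophage core and 29 of 35 lysosomal genes.

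**Figure D5:**
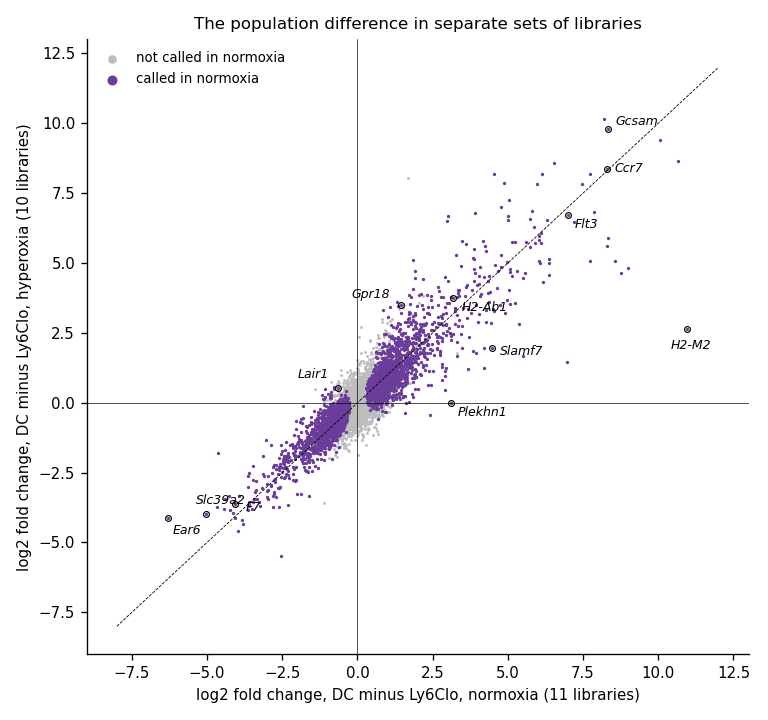
Log2 fold change of DC minus Ly6Clo in normoxia (x axis, 11 libraries) and in hyperoxia (y axis, 10 other libraries) for each gene tested in both, with genes called in normoxia in purple, the rest in grey, and a dashed line of equality. Of 3187 purple points 3100 have the same sign on both axes, and H2-M2, Slamf7 and Plekhn1 lie far below the line.

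A test of whether the population difference itself changed with oxygen called no gene. In edgeR's quasi-likelihood test of the interaction over 21 libraries 0 of 11701 genes passed, with 544 at an unadjusted p under 0.05 and a smallest adjusted p of 0.39. Of the other fits, DESeq2 called 5 and limma voom 0, and with every gene kept regardless of its counts edgeR called 189. The 5 genes with the smallest p were Cenpk, Gpr18, Kif11, Plekhn1 and Lair1. Gpr18, a G protein-coupled receptor, differed by 1.45 in normoxia and 3.51 in hyperoxia (interaction 2.01, SE 0.42, adjusted p = 0.39), and Lair1, an inhibitory collagen receptor, by -0.66 and 0.53 (interaction 1.16, SE 0.27, adjusted p = 0.54). Neither passed the adjustment. For Slamf7 the interaction was -2.76 (SE 0.90, adjusted p = 0.95). Without libraries 3 and 5 of both hyperoxic populations 0 genes passed and 392 were at an unadjusted p under 0.05.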

How the data were processed

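The deposited values were read counts per gene, and the tools named in the submitters' processing notes were TopHat, HTSeq 0.4.1, FastQC, Picard and SAMtools with the build NCBIM37. Their settings, strand, annotation release and treatment of duplicates are not given in the sources used here, so reads of overlapping or antisense genes cannot be told apart. Counts were tested with edgeR 4.0.16 (R 4.3.3): low counts removed by filterByExpr (10 per library, 15 in all), TMM scaling, robust quasi-likelihood F test, litter as an additive block, Benjamini-Hochberg adjustment. The SE is the log2 fold change divided by the square root of F. Levels are CPM scaled by TMM over all 43 libraries. The hyperoxic libraries and the interaction were fitted in the same way.

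Litter numbers come from the labels. Deviations from the group means correlated at 0.19 on average between DC and Ly6Clo libraries of the same litter and at -0.09 between litters. Members and lists were chosen with earlier results of these data known. The text names the 12 largest called differences in each direction (at least 50 CPM in the higher group, no overlap), the 6 smallest p-values in each direction, the defining genes and up to 4 smallest p-values in each direction of each list, and the 5 smallest p-values of the interaction. The other class II genes and Chil3 were chosen after their values were seen. The alternatives were DESeq2 1.42.0, limma 3.58.1 voom, RLE scaling, other filters, no block, all libraries in 1 fit, single litters, a correction for collapsed reads, the number of genes detected as a covariate, and leaving out libraries; those that left out libraries by their marker levels or by hyperoxic gene levels were chosen after seeing the data. A few genes that the rule names are not reported here. Total counts per library limit precision, and counts of amplified reads are not independent molecules.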

Additional observations from a re-analysis of the deposited data

Results flagged for a closer look

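Single libraries lay far from the rest of their group in 17 of 140 groups of values examined (the per-library values of the genes given above and below and the list sums). A chance rate of about 1 in 20 would hold only for independent values with a normal spread. Some of these groups had 0 CPM in all libraries but 1, and Cd3e is also part of the T and NK cell sum. The 17 therefore cannot be compared with that rate. Ly6Clo library 2 accounts for 6 of the 17. Its summed T and NK cell level was 1086 CPM (others 202 to 413), Cd3e 58.9 CPM (others 0), Il12b 26.1 CPM (others 0), Zbtb46 13.3 CPM (others 6.11 to 7.43), Tlr11 2.78 CPM (others 0 to 0.615) and Ly75 93.4 CPM (others 138 to 155). In the other Ly6Clo libraries, Cd79a was 53.5 CPM in library 1 (others 16.6 to 27.3), Mycl 3.07 CPM in library 1 (others 0), Ciita 9.09 CPM in library 3 (others 1.44 to 3.33) and Cxcr3 28.8 CPM in library 4 (others 6.11 to 9.84). In DC, the T and NK cell sum was 577.5 CPM in library 2 (others 155 to 276) with Cd3e at 31.1 CPM (others 0 to 1.62), and the neutrophil sum was 1324 CPM in library 4 (others 175 to 502). Mycl was 96.4 CPM in DC library 1 (others 43.7 to 59.5) and Tlr11 190.0 CPM in the same library (others 98 to 124). Plin2 was 477 CPM in DC library 3 (others 647 to 683), and Marco 19.3 CPM in DC library 6 (others 0 to 5.67).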

How the results depend on the processing

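The count of 3311 genes was 2068 without litter 93, 1640 in litter 93 alone, 882 in litter 100 alone and 1150 with the number of genes detected as a covariate. Fewer samples entered the litter fits. The covariate did not overlap between the groups, so its part and that of the population cannot be told apart. Of the 2068, 1960 were among the 3311. The other planned settings gave counts within 1.5 times: 3313 with RLE scaling, 3432 with DESeq2, 3161 with limma voom, 3762 without the filter and 2624 with no replicate block (no litter term). Leaving out 1 library gave 2738 (without DC library 1) to 3670 (without DC library 3). In hyperoxia the 2861 calls became 1630 with no replicate block, and 2226 to 2900 with 1 library left out. For the interaction, where 0 genes were called, DESeq2 called 5 and the fit without the filter 189, no replicate block 0, and leaving out 1 library 0 to 1. Labels carry no replicate numbers, so the block is the litter. Of 1560 list counts under other settings 1323 were within 1.5 times the main one. Genes that changed sign past a threshold were Adgre4 (0.32 without litter 100), Ccr9 (-2.94 with the covariate) and Ctsk (1.46 in litter 100 alone), and the called genes Mfge8 (-0.059) and Tmem119 (-0.31) did so with the covariate; the cause was not tested.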

Other observations

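Several of the clearest differences lay in genes of none of the lists. Higher in DC, the tight junction gene Cldn1 had 161, 208 and 237 CPM (lowest, median, highest) against 4.92, 2.22, 4.96, 2.88 and 0.873 CPM in the 5 Ly6Clo libraries (log2 fold change 6.04, SE 0.23, adjusted p = 2.1e-11). Rtl8c, a gene derived from a retrotransposon, had 152, 207 and 272 CPM against 7.38, 3.89, 9.91, 9.35 and 4.37 CPM (log2 fold change 4.97, SE 0.20, adjusted p = 2.5e-11). Gpr141b had 106, 198 and 289.7 CPM against 0.615, 1.11, 0.826, 1.44 and 0 CPM (log2 fold change 7.85, SE 0.32, adjusted p = 2.7e-11). In all 3 every DC library stood above every Ly6Clo library. Lower in DC, Klhdc4, a kelch domain gene, had 60.7, 69.1 and 84.9 CPM against 349, 417, 287, 429.6 and 549 CPM (log2 fold change -2.60, SE 0.13, adjusted p = 3.1e-10), and Abcc5, a transporter of organic anions and nucleotides, 25.1, 37.5 and 55 CPM against 241, 226, 243, 297 and 285 CPM (log2 fold change -2.86, SE 0.15, adjusted p = 3.8e-10). Mcoln3, the endolysosomal channel, had 0.621, 7.59 and 16.4 CPM in DC against 127, 138, 71.9, 141 and 112 CPM in Ly6Clo (log2 fold change -3.84, SE 0.34, adjusted p = 7.4e-07). Cd200r4, a receptor of the CD200R family, whose members have close copies, had 2.48, 7.74 and 25.4 CPM against 105, 109, 45.4, 118 and 90.8 CPM (log2 fold change -3.48, SE 0.37, adjusted p = 5.1e-06). In these 4 every DC library stood below every Ly6Clo library. Of the called genes, 49 had no symbol in the tables used and were not described.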
